A study of Mus musculus with 12 samples.

Results

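The contrast described here is the genotype difference of the 2-to-4 h change, that is, the change between 2 and 4 h of Pam3CSK4 in arrays labelled p38a-knockout (KO) minus the same change in arrays labelled wild type (WT). It uses 8 of the 12 arrays of the series, namely arrays A and B of KO 4 h, KO 2 h, WT 4 h and WT 2 h. The arrays at 0 h carry no weight in it and served for normalization, for the estimate of spread and for sorting genes into time classes. RNA came from dendritic cells that were isolated from lymph nodes of C57BL/6 mice and cultured, and every culture, KO and WT, received Pam3CSK4 at 1 mg/ml as labelled. The groups were KO cells at 4 h, KO cells at 2 h, WT cells at 4 h and WT cells at 2 h, with 2 arrays each. The sources used here do not give the driver or extent of the p38a deletion, the age of the mice or any pooling of animals. The labels do not tell whether arrays A and B are separate mice or cultures, so p-values measure only their spread, which may be technical. No untreated cultures at 2 or 4 h were analysed, so the ligand and time in culture cannot be told apart.

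Pam3CSK4 is a synthetic lipopeptide that activates dendritic cells through TLR2 with TLR1. In such cells the transcription factors NF-kB and AP-1 switch on cytokine, chemokine and co-stimulatory genes within hours; many of the messages made early carry AU-rich elements in their tails and are short-lived. p38α, the kinase encoded by Mapk14, acts through MK2 on proteins that bind AU-rich elements, and is known in macrophages for holding such messages stable. The contrast asks whether messages induced by 2 h decay, or keep rising, differently by genotype label.

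Levels are log2(signal + 16) after quantile normalization, and changes and differences are on the same log2 scale, on which folds of weakly expressed genes are understated. A gene was called at an adjusted p under 0.05 (limma, Benjamini-Hochberg over 12791 genes). The 8 arrays correlated with the other array of their group at r between 0.9865 and 0.9899 across genes, while the highest r with an array of another group ran from 0.984 to 0.9872. Their overall brightness as deposited, a 2% trimmed mean, lay between 66.59 and 101.82, and the median SD within a group was 0.1454 in log2. The ratio of 3′ to 5′ control probe sets was higher in KO arrays for Gapdh (0.848 to 0.922, against 0.834 to 0.846 in WT arrays) and for Actb (1.163 to 1.234, against 1.098 to 1.135), without overlap. Its part in any difference below was not tested.

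Few messages were called in opposite directions between 2 and 4 h under the 2 genotype labels. In KO arrays 826 genes rose (6.46% of those tested) and 927 fell (7.25%) between 2 and 4 h. In WT arrays 681 rose (5.32%) and 736 fell (5.75%). Of these, 904 were called in the same direction in both, which is 51.6% of the KO calls and 63.8% of the WT calls, and 2 were called in opposite directions. Averaged over the genotypes, 1491 genes rose (11.7%) and 1392 fell (10.9%). Over all genes tested, 3922 had KO and WT changes of opposite sign, most of them not called under either label. On the deposited scale, where the arrays keep unequal overall brightness, the averaged counts were 1379 rising and 176 falling, with 260 and 43 in KO and 173 and 57 in WT. The correlation of the KO and WT changes across genes was 0.571 over all genes tested, given as a description because genes are not independent and all arrays were normalized together. Since the RNA is from bulk cultures, fewer cells of a type and less RNA per cell cannot be told apart in any of these changes.

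The genotype difference itself was called for 0 genes in either direction (0% higher and 0% lower of 12791; limma, smallest adjusted p = 0.123). At an unadjusted p under 0.05, 393 genes were higher (3.07%) and 524 lower (4.1%), 917 in all (7.17%). The median size of the difference was 0.157, and 82 genes (0.641%) had a difference of at least 1. The precision behind this was a median SE of 0.217, which gives a 95% interval of 0.462 to either side. For 82.7% of genes the whole interval lay within 1 in log2 of 0, so larger differences are outside the interval for most genes, whereas smaller ones could not be resolved with 2 arrays per group.

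**Figure D1:**
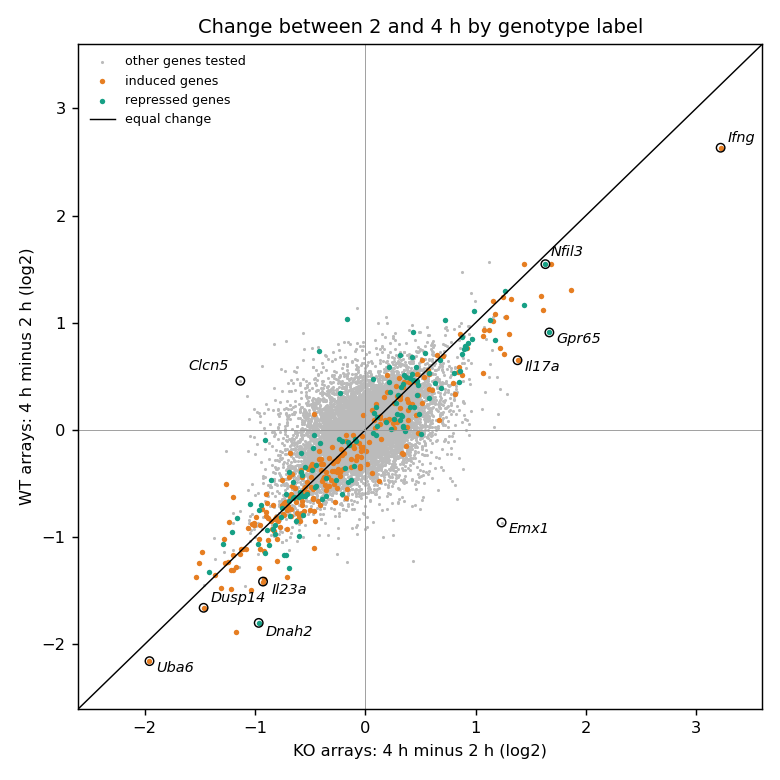
Change between 2 and 4 h (4 h minus 2 h, log2) in KO arrays on the horizontal axis and in WT arrays on the vertical axis, 1 point per gene, with the 251 induced genes in orange, the 131 repressed genes in green and a line of equal change. The induced and repressed genes lie along the line, and Ifng has the highest change on both axes (3.22 in KO and 2.63 in WT).

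Mapk14, the targeted gene, was not lower in KO arrays by its brightest probe set. That probe set read 8.04 and 7.93 in KO at 4 h and 8.05 and 8.07 in KO at 2 h, against 7.56 and 7.75 in WT at 4 h and 7.76 and 7.44 in WT at 2 h. KO arrays thus lay above WT arrays at both times, without overlap. The levels of its other probe sets were not compared by label. Its genotype difference of the change was -0.13 (95% interval -0.53 to 0.27, adjusted p = 0.925), and 3 of its 6 probe sets lay above the expression filter. The sources used here do not place the deleted part, and a probe set outside it checks nothing. KO and WT below therefore mean the arrays labelled so.

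Genes were sorted into time classes by changes averaged over both genotypes, which give neither label an advantage. A gene was induced where its averaged change from 0 h was called and at least 1 in log2 at 2 or 4 h, and repressed where it was called and at most -1. Of 251 induced genes (1.96% of those tested), 141 then fell between 2 and 4 h, 49 were not called either way and 61 rose further. Of 131 repressed genes (1.02%), 53 fell further, 33 were not called and 45 rose.

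The transient genes, induced by 2 h and falling by 4 h, fell under both labels, with medians close together. Their median change was -0.66 in KO and -0.70 in WT arrays, and 116 of 141 fell in KO and 118 in WT (7.25% and 5.75% of all genes). The class was chosen by the averaged fall, so the shared direction is a description. The median genotype difference was 0.0375, with 85 of 141 genes (60.3%) above 0, against a median of -0.0126 and 47.8% above 0 over all genes tested. That median was 0.011 without KO 2 h B and 0.072 without KO 2 h A, and on the deposited scale it was 0.146, with 78% above 0, against 0.033 and 55.9% over all genes. At an unadjusted p under 0.05, 11 of the 141 were higher and 4 lower, 10.6% against 7.17% of all genes. 

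Dusp14, a dual-specificity phosphatase that restrains MAP kinase signalling, was among the steepest of the transient genes. It read 9.04 and 8.95 in KO at 4 h and 10.50 and 10.42 in KO at 2 h, against 8.89 and 8.84 in WT at 4 h and 10.47 and 10.58 in WT at 2 h. The fall was 1.46 in KO and 1.66 in WT, and both passed the test (adjusted p = 4.08e-08 and 8.91e-09). The difference of 0.19 did not (95% interval -0.06 to 0.44, adjusted p = 0.792). Uba6, an E1 enzyme that activates ubiquitin and FAT10, fell by 1.96 in KO and by 2.16 in WT arrays, with a difference of 0.20 (-0.10 to 0.50). Gprc5c, an orphan G protein-coupled receptor, fell by 1.17 in KO and by 1.88 in WT. Its WT 4 h arrays were far apart, at 5.35 and 4.44, and the interval of its difference ran from -0.10 to 1.52.

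Procr, the endothelial protein C receptor, had the smallest unadjusted p of the transient class. It read 11.32 and 11.32 in KO at 4 h and 11.17 and 11.35 in KO at 2 h, against 11.29 and 11.20 in WT at 4 h and 11.72 and 11.59 in WT at 2 h. The WT arrays of the 2 times separated and the KO arrays overlapped. Its message fell by 0.40 in WT (adjusted p = 0.00243) and changed by 0.06 in KO (adjusted p = 0.66), but the difference of 0.46 did not pass (0.24 to 0.69, adjusted p = 0.493). Arhgap22, a GTPase-activating protein for Rac, fell by 0.27 in KO and by 0.67 in WT, with a difference of 0.40 (0.14 to 0.66, adjusted p = 0.587).

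The 61 genes that kept rising to 4 h rose a little more in KO arrays, without a call for any of them. Their median change was 0.58 in KO and 0.51 in WT, and 50 rose in KO against 42 in WT. Over all genes tested, calls of a rise were also more frequent in KO (6.46%) than in WT (5.32%). The class was chosen by the averaged rise, so the shared direction is a description. The median genotype difference was 0.131, with 45 of 61 (73.8%) above 0, against 47.8% of all genes. At an unadjusted p under 0.05, 11 were higher (18%) and 0 lower, against 3.07% and 4.1% of all genes. Ifng, Il17a and, by its brightest probe set only, Cxcl11 lie on the positive side, whereas Cxcl9, Cxcl10 and Ebi3 had differences near 0.

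**Figure D2:**
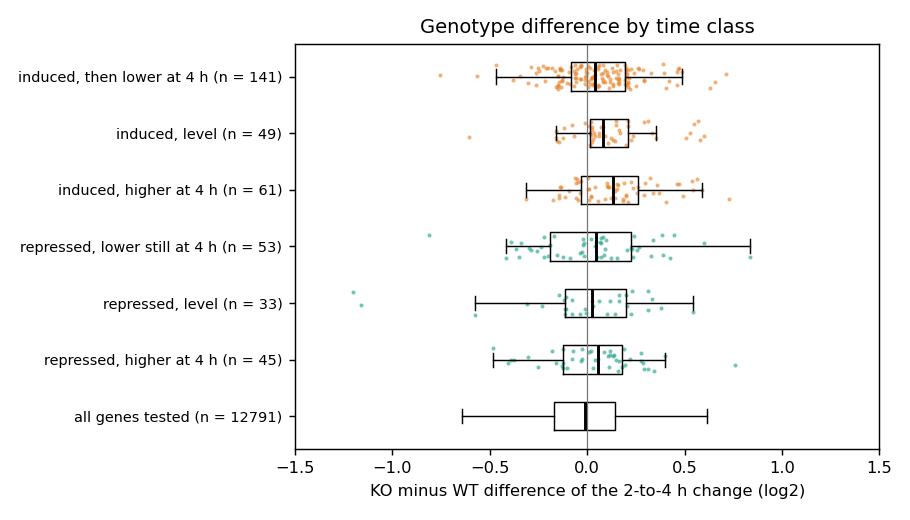
Genotype difference of the 2-to-4 h change (KO minus WT, log2) for each time class, with 1 point per gene, boxes from the lower to the upper quartile with the median, and whiskers to the last gene within 1.5 box lengths; points are not drawn for all genes tested. The medians of the induced classes are 0.0375, 0.0799 and 0.131, against -0.0126 for all genes tested.

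The promoters of Ifng and Il17a are shown because these genes had the largest genotype differences in the rising class, and that of Cxcl10 because it rose in the same class with a difference near 0. Each line gives the 250 bases before the start site from RefSeq (GRCm38.p6), in the direction of the gene, with matches to 4 searched motifs in capitals. Ifng is at chr10:118440796-118441045 (+ strand), Il17a at chr1:20730655-20730904 (+ strand) and Cxcl10 at chr5:92348890-92349139 (- strand).
Ifng: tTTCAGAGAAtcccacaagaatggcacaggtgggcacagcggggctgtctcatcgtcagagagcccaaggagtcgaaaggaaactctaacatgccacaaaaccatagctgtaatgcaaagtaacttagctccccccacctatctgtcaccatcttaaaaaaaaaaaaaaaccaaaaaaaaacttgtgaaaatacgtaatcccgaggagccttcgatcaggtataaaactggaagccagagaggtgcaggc
Il17a: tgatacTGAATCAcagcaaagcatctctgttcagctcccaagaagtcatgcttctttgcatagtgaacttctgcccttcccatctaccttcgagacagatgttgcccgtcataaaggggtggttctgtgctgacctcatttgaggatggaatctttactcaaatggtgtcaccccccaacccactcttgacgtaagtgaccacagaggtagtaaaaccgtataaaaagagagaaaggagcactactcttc
Cxcl10: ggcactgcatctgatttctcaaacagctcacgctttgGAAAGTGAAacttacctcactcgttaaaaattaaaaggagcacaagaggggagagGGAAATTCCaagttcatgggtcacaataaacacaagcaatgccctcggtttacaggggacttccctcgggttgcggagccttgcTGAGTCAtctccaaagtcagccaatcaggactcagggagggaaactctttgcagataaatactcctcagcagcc

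The motifs were the AP-1 motif TGANTCA, the interferon-gamma activated motif TTCNNNGAA, the interferon-stimulated motif GAAANNGAA and the NF-kB motif GGNNTTTCC, the last 2 shortened to a core, each read on both strands, and matches of different motifs may overlap. In capitals, Ifng holds an interferon-gamma activated match that begins 249 bases before the start. Il17a holds an AP-1 match at 244 bases, and Cxcl10 an interferon-stimulated match at 213 bases, an NF-kB match at 158 bases and an AP-1 match at 74 bases. Promoters were matched by symbol for 201 of the 251 induced genes, some with several starts. The interferon-stimulated motif was in 9 of 65 promoters of rising genes (13.8%) and in 7 of 136 of transient genes (5.15%), against 7.13% of all 32851 promoters. The NF-kB motif was in 9.23% of the promoters of rising genes and 14% of those of transient genes, against 4.93% of all. The AP-1 motif was in 10.8% of the rising and 6.62% of the transient promoters, against 6.75% of all. The interferon-gamma activated motif was in 10.8% of the rising and 10.3% of the transient promoters, against 7.02% of all. A match is a string of letters in the window and not a bound site. Sites that differ from the searched letters, such as other forms of the NF-kB motif, stay in lower case and are not counted.

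Ifng, the signature cytokine of TH1 and natural killer cells, had the largest averaged rise between 2 and 4 h in its class. It read 11.35 and 11.43 in KO at 4 h and 8.02 and 8.31 in KO at 2 h, against 11.16 and 11.07 in WT at 4 h and 8.57 and 8.40 in WT at 2 h. The KO arrays were the lowest at 2 h and the highest at 4 h, and KO and WT did not overlap at either time. The rise was 9.32-fold in KO (3.22 in log2, adjusted p = 8.13e-11) and 6.2-fold in WT (2.63, adjusted p = 1.63e-09). The difference of 0.59 had an interval of 0.27 to 0.91, an unadjusted p of 0.00142 and an adjusted p of 0.493, so it did not pass.

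Il17a, the signature cytokine of TH17 and γδ T cells, followed the same order. It read 7.89 and 7.68 in KO at 4 h and 6.22 and 6.60 in KO at 2 h, against 7.65 and 7.55 in WT at 4 h and 6.91 and 6.99 in WT at 2 h. Again KO arrays were below WT at 2 h and above them at 4 h. The rise was 2.60-fold in KO and 1.57-fold in WT, both called (adjusted p = 2.44e-05 and 0.0118), and the difference of 0.73 did not pass (0.27 to 1.19, adjusted p = 0.587). Both genes are mainly products of lymphocytes. Of the T cell markers 18 of 19 were above the expression filter, with summed signals of 2647 to 2698 in KO at 4 h and 2405 to 2433 in KO at 2 h, against 2750 to 2856 in WT at 4 h and 2542 to 2651 in WT at 2 h. All 13 markers of natural killer and innate lymphoid cells were above it. Their sum changed by 0.208 in KO and by 0.022 in WT (log2 of group means, difference 0.186). Such sums weigh bright markers most, and Gzmb, the brightest of these, rose by 0.68 in KO and by 0.34 in WT. The median change over the natural killer list was only 0.023 in KO and 0.052 in WT. The median difference of its markers was 0.202, higher than for the other lists. Among T cell markers the brightest was Il7r, which rose under both labels, and the median change was 0.056 in KO and -0.102 in WT. The part of these cells in the Ifng and Il17a values was not tested.

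Cxcl11, a chemokine that attracts T cells through CXCR3 and is induced by interferon, read 9.65 and 9.49 in KO at 4 h and 7.75 and 8.17 in KO at 2 h, against 9.27 and 9.22 in WT at 4 h and 8.26 and 7.99 in WT at 2 h. It rose by 1.61 in KO and by 1.12 in WT, and the difference of 0.49 did not pass (0.07 to 0.91, adjusted p = 0.645). A weaker Cxcl11 probe set above the filter rose by 0.705 in KO and by 0.662 in WT, a difference of 0.043. Gpr33, a chemoattractant receptor-like gene, rose 3.21-fold in KO and 2.93-fold in WT, with a difference of 0.13 (-0.39 to 0.65). Psd3 rose 3.65-fold in KO and 2.47-fold in WT, but its KO 2 h arrays were far apart, at 5.60 and 4.67, and the interval ran from -0.18 to 1.31.

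Among the 49 induced genes not called either way between 2 and 4 h, 39 (79.6%) had a difference above 0, against 47.8% of all genes tested. Their median was 0.0799, and it ran from 0.071 without WT 2 h A to 0.133 without WT 2 h B. With single arrays left out the share above 0 was lower, from 65.3% to 75.5%. Stat5a, a transcription factor downstream of GM-CSF and other cytokines, read 10.04 and 10.13 in KO at 4 h and 9.80 and 9.71 in KO at 2 h, against 9.79 and 9.88 in WT at 4 h and 10.12 and 9.98 in WT at 2 h. The arrays separated upward in KO and downward in WT. It rose by 0.34 in KO (adjusted p = 0.0209), its change in WT was -0.21 (adjusted p = 0.159), and the difference was 0.55 (0.28 to 0.82, adjusted p = 0.493). A further Stat5a probe set gave 0.335. Btla, an inhibitory receptor of lymphocytes and dendritic cells, rose by 0.37 in KO (adjusted p = 0.0191), changed by -0.15 in WT (adjusted p = 0.388), and had a difference of 0.53 (0.23 to 0.82, adjusted p = 0.493). Ptgs2, the inducible cyclooxygenase whose message carries AU-rich elements, read 10.75 and 10.57 in KO at 4 h and 10.15 and 10.49 in KO at 2 h, against 10.42 and 10.38 in WT at 4 h and 10.75 and 10.50 in WT at 2 h. Its changes of 0.34 in KO and -0.23 in WT did not pass the test (adjusted p = 0.0582 and 0.242). Its difference of 0.57 had an interval of 0.23 to 0.91 and an adjusted p of 0.531. A weaker Ptgs2 probe set changed by 0.291 in KO and by 0.175 in WT, a difference of 0.116, so the fall in WT was not shared.

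Over all 251 induced genes the difference was above 0 for 169 (67.3%), with a median of 0.0699, and 94% of the intervals lay within 1 of 0. Relative to WT, the same genes had a median KO level that was 0.067 higher at 4 h and 0.034 lower at 2 h. Over all genes tested the median KO level was 0.015 higher at 4 h and 0.034 higher at 2 h. No gene among the 251 was called (limma, 31 at an unadjusted p under 0.05, 12.4%, against 7.17% of all genes). The share above 0 ran from 61% to 79.3% over the alternative settings tried. The highest was on the deposited scale, where 55.9% of all genes lay above 0, against 47.8% in the main setting.

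**Figure D3:**
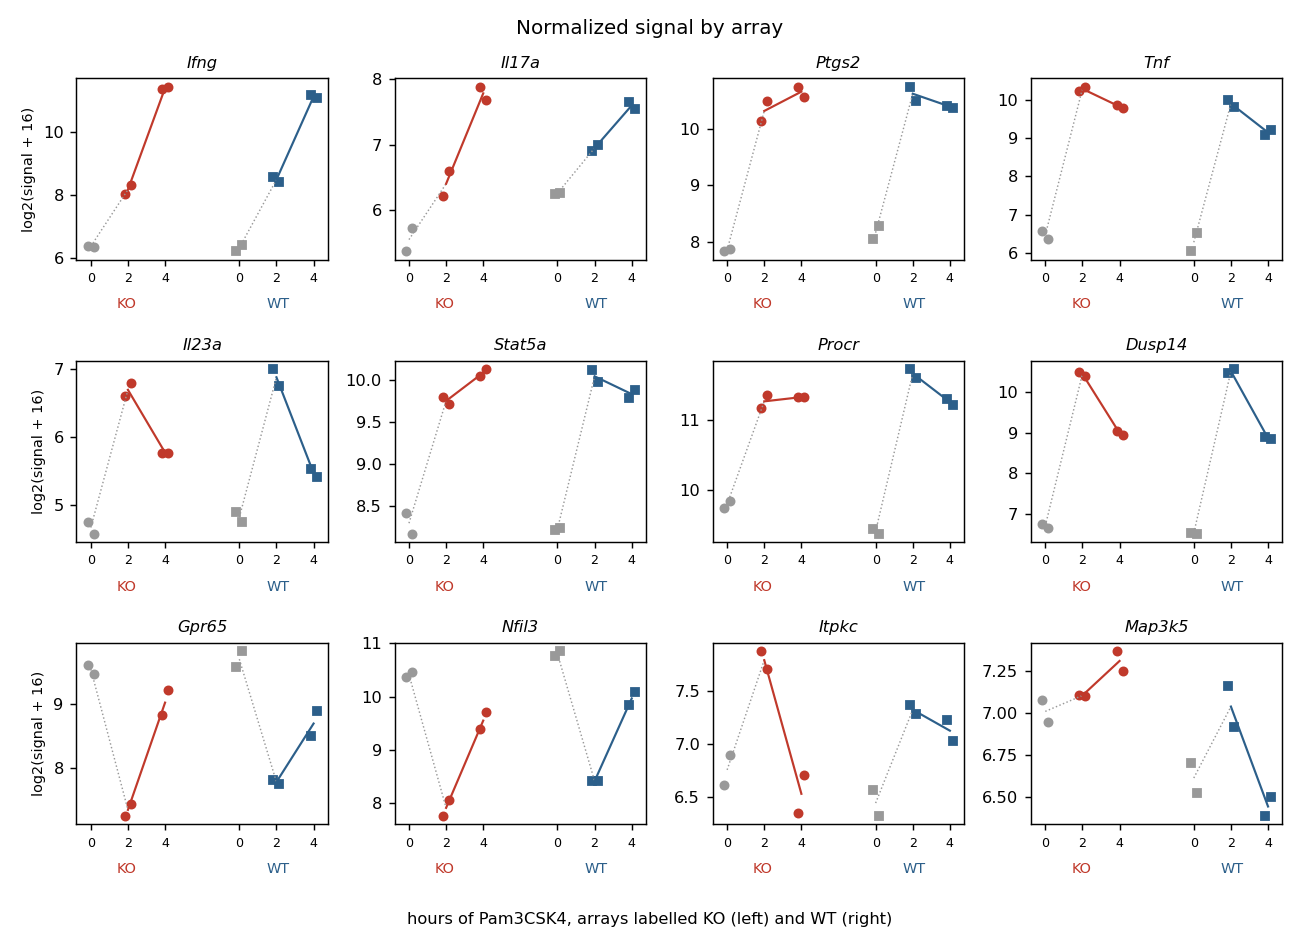
Level of 12 genes in each array, as log2(signal + 16), with KO arrays on the left and WT arrays on the right of each panel and hours of Pam3CSK4 along the bottom; points are single arrays, lines join group means, and the 0 h arrays, which do not enter the contrast, are grey. Ifng and Il17a start lower in KO than in WT at 2 h and end higher at 4 h, whereas for Dusp14 and Nfil3 the differences are 0.19 and 0.09 in log2.

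The median difference of the repressed genes was 0.046 for those that fell further, 0.0236 for those not called between 2 and 4 h and 0.0577 for those that rose again. Those that rose again changed by a median of 0.58 in KO and 0.55 in WT, and 38 of 45 rose in KO and 37 in WT (6.46% and 5.32% of all genes). They were chosen by the averaged rise, so the shared direction is a description. Nfil3, a transcription factor required for natural killer cells and some dendritic cells, read 9.39 and 9.71 in KO at 4 h and 7.77 and 8.07 in KO at 2 h, against 9.84 and 10.09 in WT at 4 h and 8.41 and 8.43 in WT at 2 h. KO arrays were lower than WT arrays at both times. The rise was 3.10-fold in KO and 2.92-fold in WT, with a difference of 0.09 (-0.27 to 0.44). Flrt3, an adhesion protein, rose by 1.44 in KO and by 1.17 in WT (difference 0.28, 0.03 to 0.53, adjusted p = 0.645).

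Gpr65, a proton-sensing receptor, had the largest difference in that class. It read 8.83 and 9.22 in KO at 4 h and 7.26 and 7.45 in KO at 2 h, against 8.50 and 8.90 in WT at 4 h and 7.82 and 7.76 in WT at 2 h. The groups overlapped at 4 h, and KO arrays were the lower ones at 2 h. The rise was 3.18-fold in KO and 1.88-fold in WT, both called, and the difference of 0.76 did not pass (0.33 to 1.19, adjusted p = 0.493). Slc27a3, an acyl-CoA synthetase of the fatty acid transport family, rose less in KO (0.43) than in WT (0.91), with a difference of -0.48 (-0.78 to -0.19, adjusted p = 0.543).

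Repressed genes that fell further did so by a median of -0.66 in KO and -0.64 in WT, 47 and 46 of 53 being called (7.25% and 5.75% of all genes). Because they were chosen by the averaged fall, the shared direction is a description. Ndrg4 fell by 1.41 in KO and by 1.33 in WT arrays, and Mxd4, an antagonist of Myc, by 1.29 and 1.06. Acadm, the medium-chain acyl-CoA dehydrogenase of fatty acid oxidation, read 9.25 and 9.19 in KO at 4 h and 9.66 and 9.71 in KO at 2 h, against 10.49 and 10.34 in WT at 4 h and 10.42 and 10.51 in WT at 2 h. Its fall of 0.47 in KO was called (adjusted p = 0.000722), its change of -0.05 in WT was not (adjusted p = 0.765), and the difference was -0.42 (-0.65 to -0.19, adjusted p = 0.493). Among the 33 repressed genes not called either way, the widest differences belonged to Gfod1 (-1.20, interval -2.19 to -0.22) and Arhgef10l (-1.16, -1.81 to -0.51). The Gfod1 arrays of WT at 2 h read 6.43 and 5.01. A weaker Gfod1 probe set above the filter gave 0.743, so the direction was not shared. Zeb2, Slc6a14 and Cxcl3 among the level induced genes, and Etfbkmt, Fndc4 and H2aw among the level repressed ones, had intervals that included 0.

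The 24 genes with the smallest unadjusted p, 12 in each direction, are described as values that did not pass. In 20 of them the mean changes in KO and WT had opposite signs, and in 18 the single arrays separated upward under one label and downward under the other. Over all genes such opposite separation was found for 225 genes upward in KO and downward in WT (1.76%) and for 276 downward in KO and upward in WT (2.16%). The 24 were selected on the contrast itself, so this share is a description. Of the 12 higher ones, 9 lay above WT at 4 h and 11 below WT at 2 h, and all 12 lower ones lay below WT at 4 h and above WT at 2 h.

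Dnah2, annotated as an axonemal dynein heavy chain, shared the smallest adjusted p of 0.123 with Emx1 and Clcn5. It read 7.86 and 7.80 in KO at 4 h and 8.77 and 8.82 in KO at 2 h, against 8.55 and 8.54 in WT at 4 h and 10.51 and 10.18 in WT at 2 h. KO arrays were lower at both times, and the message fell under both labels, by 0.97 in KO and by 1.80 in WT (adjusted p = 1.12e-05 and 2.59e-08). The difference was 0.83 (0.54 to 1.13). A weaker Dnah2 probe set gave -0.669, so the direction was not shared. At 0 h the KO arrays read 10.85 and 10.94 and the WT arrays 11.13 and 10.92.

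Clcn5, an endosomal chloride-proton exchanger, read 7.13 and 7.54 in KO at 4 h and 8.88 and 8.06 in KO at 2 h, against 8.85 and 8.64 in WT at 4 h and 8.31 and 8.25 in WT at 2 h. It fell by 1.13 in KO (adjusted p = 0.000964), and its WT change was 0.46 (adjusted p = 0.152). The difference of -1.59 had an interval of -2.17 to -1.02 and did not pass with all arrays (adjusted p = 0.123). Without KO 2 h B it was -2.00 and passed (adjusted p = 0.00136), and without WT 2 h B the Dnah2 difference was 0.995 and passed (adjusted p = 0.0329). Of 3 other Clcn5 probe sets above the filter, those at -0.206 and -0.83 had the same sign and that at 0.677 the opposite one. The Clcn5 probe set used has the suffix _x_at, which marks probe sets that can also detect related sequences. The brightest without that suffix is the one at -0.206. Emx1, a homeobox gene, had the largest difference, 2.10 (1.35 to 2.85), at levels near the filter of 4.73: 5.36 and 5.71 in KO at 4 h and 4.40 and 4.20 in KO at 2 h, against 4.59 and 4.24 in WT at 4 h and 5.07 and 5.48 in WT at 2 h.

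**Figure D4:**
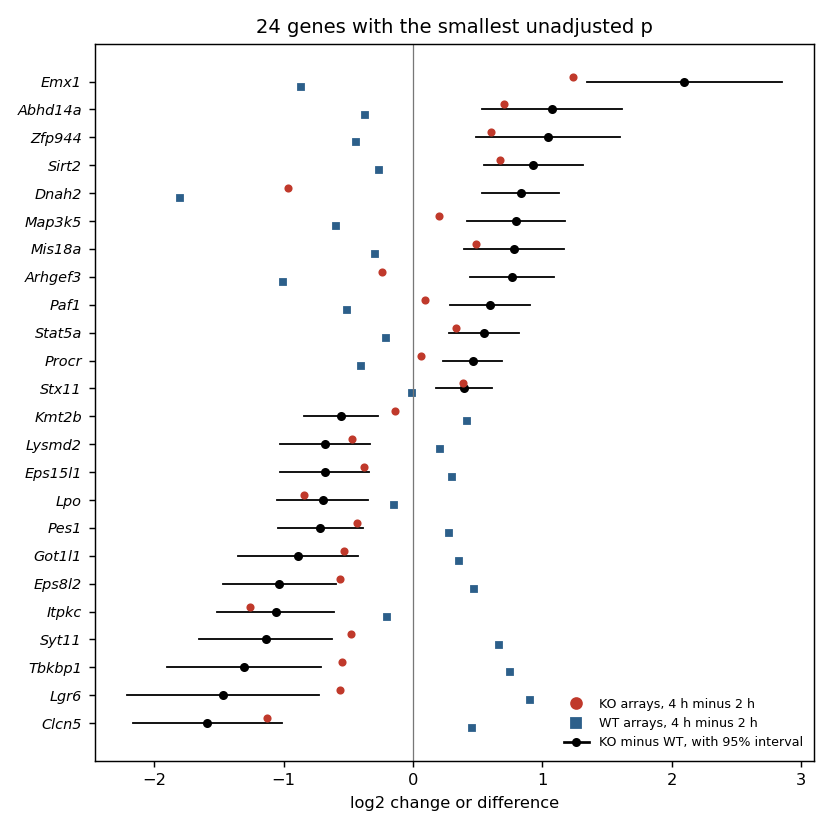
The 24 genes with the smallest unadjusted p of the genotype difference, in order of the difference; black points and bars give the KO minus WT difference with its 95% interval, red circles the change in KO arrays and blue squares the change in WT arrays (4 h minus 2 h, log2). The intervals leave out 0 because the genes were selected by p, and the smallest adjusted p is 0.123.

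Sirt2, a NAD-dependent deacetylase, read 8.35 and 8.54 in KO at 4 h and 7.79 and 7.75 in KO at 2 h, against 8.23 and 8.14 in WT at 4 h and 8.47 and 8.41 in WT at 2 h. It rose by 0.67 in KO (adjusted p = 0.00232), changed by -0.26 in WT (adjusted p = 0.23), and had a difference of 0.93 (0.55 to 1.31, adjusted p = 0.28). Map3k5, also named ASK1 and known as a kinase upstream of p38 and JNK, read 7.36 and 7.25 in KO at 4 h and 7.11 and 7.10 in KO at 2 h, against 6.39 and 6.50 in WT at 4 h and 7.16 and 6.92 in WT at 2 h. It fell by 0.59 in WT (adjusted p = 0.00635) and changed by 0.20 in KO (adjusted p = 0.324). The difference was 0.80 (0.41 to 1.18, adjusted p = 0.493), and another probe set gave 0.42. Arhgef3, an exchange factor for RhoA, fell by 1.01 in WT (adjusted p = 1.94e-05) against a change of -0.24 in KO (adjusted p = 0.157), a difference of 0.76 (0.44 to 1.09).

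Stx11, a syntaxin needed for cytotoxic granule release in lymphocytes, rose by 0.39 in KO (adjusted p = 0.00194) against a change of -0.01 in WT (adjusted p = 0.965), a difference of 0.40 (0.18 to 0.61). A second Stx11 probe set gave 0.481. The other higher genes were Mis18a, Paf1, Abhd14a and Zfp944. Mis18a, a centromere protein, had 0.78, and a further probe set gave 0.214. Paf1, a subunit of the transcription elongation complex of that name, had 0.60. Abhd14a had 1.07, with a further probe set at -0.219, and the zinc finger gene Zfp944 had 1.04, with a further one at -0.396.

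On the lower side, Itpkc, a kinase of inositol trisphosphate that dampens calcium signalling, read 6.35 and 6.70 in KO at 4 h and 7.87 and 7.70 in KO at 2 h, against 7.22 and 7.02 in WT at 4 h and 7.36 and 7.27 in WT at 2 h. It fell by 1.26 in KO (adjusted p = 4.84e-05) and changed by -0.20 in WT (adjusted p = 0.475), and the difference was -1.06 (-1.51 to -0.61, adjusted p = 0.28). Tbkbp1, an adaptor of the kinase TBK1, changed by -0.55 in KO (adjusted p = 0.0802) and rose by 0.75 in WT (adjusted p = 0.0229), a difference of -1.31 (-1.90 to -0.71), while its further probe set gave 0.099. Pes1, which is needed for ribosome assembly, fell by 0.44 in KO (adjusted p = 0.0146) against a change of 0.28 in WT (adjusted p = 0.121), a difference of -0.72. Lpo, lactoperoxidase, fell by 0.85 in KO (adjusted p = 0.000187) against -0.15 in WT (adjusted p = 0.493), a difference of -0.70. The remaining differences were -1.03 for Eps8l2, -1.14 for Syt11 (4 further probe sets from -0.455 to 0.646), -1.47 for Lgr6, -0.68 for both Eps15l1 and Lysmd2, -0.56 for the histone methyltransferase Kmt2b and -0.89 for Got1l1. Of the 24, 12 had 18 further probe sets above the filter, of which 11 gave the same sign and 7 the opposite one, and 4 gave the same sign at a size of at least 50% of that of the probe set used.

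Messages with AU-rich elements are the group that p38 and MK2 are best known to hold stable. Of 44 measured, 5 rose and 22 fell between 2 and 4 h averaged over genotypes (11.7% and 10.9% of all genes tested), and 17 fell in KO and 17 in WT (7.25% and 5.75% of all). Their median change was -0.154 in KO and -0.249 in WT. The median genotype difference was 0.062, with 26 above 0, and 5 higher and 2 lower at an unadjusted p under 0.05. A list median stands beside -0.0126 for all genes tested, and no member of any list was called in the genotype difference. Leaving out 1 array moved the median difference of each of the 24 lists by over 1.5 times and turned the sign of 9, among them these messages (-0.005 without WT 4 h B).

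Several messages of that kind were chosen for their role after their values were seen. Tnf read 9.85 and 9.80 in KO at 4 h and 10.23 and 10.34 in KO at 2 h, against 9.09 and 9.20 in WT at 4 h and 9.99 and 9.82 in WT at 2 h. KO arrays were above WT arrays at both times, and the fall was 0.46 in KO and 0.75 in WT (adjusted p = 0.0265 and 0.00125). The difference was 0.29 (-0.10 to 0.68, adjusted p = 0.798). Il23a, the p19 subunit of IL-23, fell by 0.93 in KO and by 1.41 in WT, with a difference of 0.49 (-0.02 to 0.99, adjusted p = 0.701). Cxcl2, a neutrophil-attracting chemokine, fell by 0.86 in KO and by 0.85 in WT, a difference of -0.01 (-0.22 to 0.21). Csf3, the granulocyte growth factor G-CSF, fell by 1.27 and 1.24 in KO and WT, a difference of -0.03 (-0.39 to 0.33). Osm, a cytokine related to Lif, rose by 1.13 in KO and by 1.03 in WT (difference 0.11, -0.26 to 0.47). Lif fell by 0.89 in KO and by 0.68 in WT (difference -0.21, -0.50 to 0.08).

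The inflammatory and TH-polarising cytokines had a median difference of 0.108 over 25 measured genes, with 17 (68%) above 0. Without WT 4 h B the median was 0.015, with 52% above 0. At an unadjusted p under 0.05, 3 were higher (Ifng, Il17a and Il6) and 0 lower. Averaged over genotypes, 8 rose and 7 fell (11.7% and 10.9% of all genes). Il6, which favours TH17 cells, read 12.09 and 12.03 in KO at 4 h and 11.79 and 11.83 in KO at 2 h, against 12.05 and 11.96 in WT at 4 h and 11.98 and 11.89 in WT at 2 h. It rose by 0.25 in KO (adjusted p = 0.0112), changed by 0.07 in WT (adjusted p = 0.551), and had a difference of 0.18 (0.00 to 0.36, adjusted p = 0.691). Il12a, the p35 subunit of IL-12, had a difference of 0.20 (-0.32 to 0.72), Il12b, its p40 subunit, 0.14 (-0.41 to 0.69), and Il10, an inhibitory cytokine, -0.15 (-0.70 to 0.40). Differences were 0.15 (-0.29 to 0.58) for Il1a, -0.09 (-0.34 to 0.16) for Il1b, 0.08 (-0.24 to 0.40) for Csf2 and -0.35 (-1.05 to 0.35) for Ifnb1. Ebi3, shared by IL-27 and IL-35, rose by 0.32 in KO and by 0.31 in WT, with a difference of 0.00 (-0.20 to 0.20).

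Of 26 chemokines, 7 rose and 6 fell averaged over genotypes (11.7% and 10.9% of all genes), and the median difference was 0.048 with 16 above 0. Cxcl1, a neutrophil attractant, read 12.21 and 12.05 in KO at 4 h and 12.79 and 12.78 in KO at 2 h, against 12.22 and 12.28 in WT at 4 h and 12.63 and 12.69 in WT at 2 h. It fell by 0.66 in KO and by 0.41 in WT (adjusted p = 2.78e-05 and 0.00181), and the difference of -0.25 did not pass (-0.47 to -0.02, adjusted p = 0.645). Without probe sets that can also detect related sequences (suffixes _x_at and _s_at) it was 0.028. Cxcl10 rose 2.27-fold in KO and 2.11-fold in WT, Cxcl9 2.23-fold in KO and 2.31-fold in WT, and Ccl17, a migratory dendritic cell product, 1.82-fold in KO and 1.86-fold in WT. Their differences were 0.10 (-0.16 to 0.36), -0.05 (-0.41 to 0.32) and -0.04 (-0.26 to 0.19). Ccl3 rose by 0.39 in KO (adjusted p = 0.015), changed by 0.09 in WT (adjusted p = 0.647), and had a difference of 0.30 (adjusted p = 0.691), against 0.21 (-0.06 to 0.49) for Ccl4 and -0.16 (-0.36 to 0.05) for Ccl22.

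Genes of the interferon-γ response were mostly called as rising. Of 22 measured, 15 rose and 2 fell averaged over genotypes, against 11.7% and 10.9% of all genes. In KO 15 rose and 2 fell, and in WT 12 rose and 2 fell. The median change was 0.471 in KO and 0.424 in WT, and the median difference was 0.015. Ido1, which breaks down tryptophan, read 7.87 and 7.91 in KO at 4 h and 6.96 and 7.15 in KO at 2 h, against 8.24 and 8.12 in WT at 4 h and 7.83 and 7.81 in WT at 2 h. KO arrays were lower at both times. It rose by 0.84 in KO (adjusted p = 0.000399), changed by 0.36 in WT (adjusted p = 0.0879), and had a difference of 0.48 (0.10 to 0.86, adjusted p = 0.642). The type I interferon list had 7 genes rising and 4 falling of 34 and a median difference of 0.011. Dhx58, a helicase that senses viral RNA, had the smallest p there (0.30, 0.05 to 0.55, adjusted p = 0.645), and weaker Dhx58 probe sets gave -0.226 and 0.42. Isg20, an antiviral exonuclease, fell by 0.41 in WT (adjusted p = 0.0158), changed by -0.11 in KO (adjusted p = 0.555), and had a difference of 0.31 (adjusted p = 0.697).

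**Figure D5:**
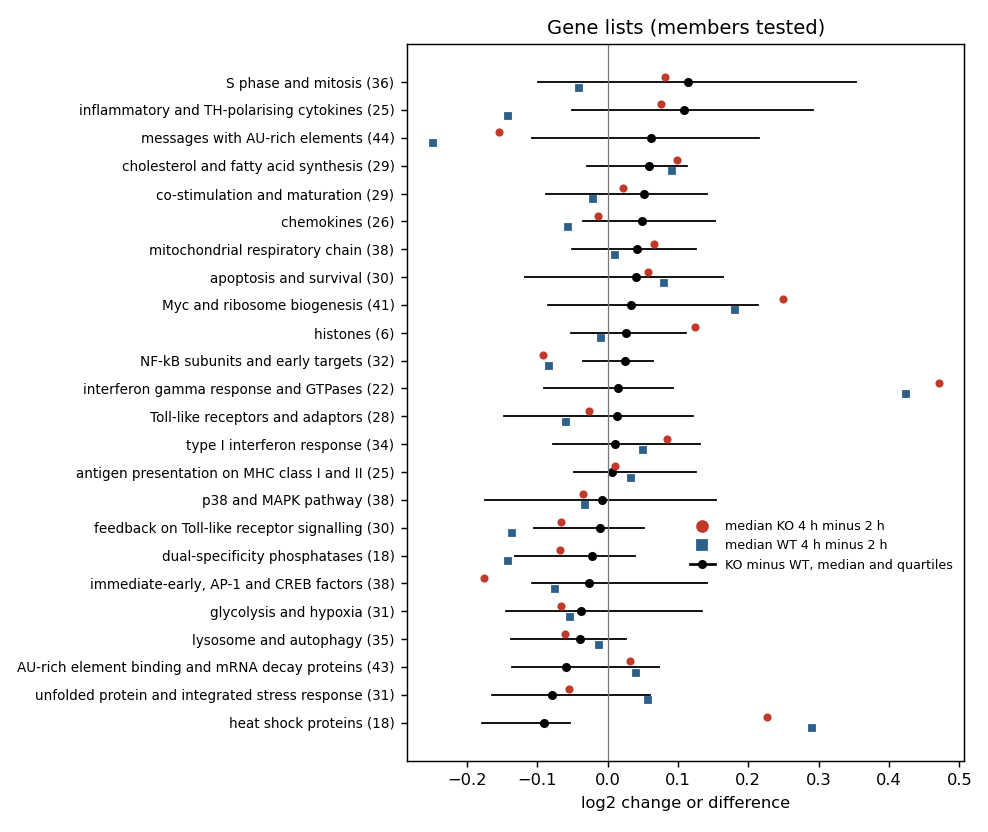
The 24 gene lists with the number of members tested in parentheses; black points and bars give the median and quartiles of the KO minus WT difference over the members, red circles the median change in KO and blue squares the median change in WT (4 h minus 2 h, log2). List medians of the difference run between -0.09 and 0.114 and stay small beside the changes of the interferon-γ response (0.471 in KO and 0.424 in WT).

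The signalling lists had medians of the difference near that of all genes. In the p38 and MAPK pathway, 5 of 38 rose and 10 fell averaged over genotypes (11.7% and 10.9% of all genes, here and for the counts of the other signalling lists), and the median difference was -0.008. Besides Map3k5, its smallest p was that of Map4k4, a kinase upstream of JNK, which fell by 0.94 in KO and by 0.70 in WT (difference -0.24, -0.45 to -0.03). Mapkapk2, encoding MK2, had a difference of 0.24 (-0.09 to 0.57). Of 18 dual-specificity phosphatases, 1 rose and 5 fell, and the median difference was -0.022. Dusp1, the phosphatase that switches p38 off, changed by -0.05 in KO and by 0.05 in WT, a difference of -0.11 (-0.31 to 0.10), and Dusp22 had a difference of 0.24 (-0.08 to 0.55).

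Among 38 immediate-early, AP-1 and CREB factors, 8 rose and 17 fell (11.7% and 10.9% of all genes), and the median difference was -0.027. Nr4a2, an orphan nuclear receptor, read 10.05 and 9.88 in KO at 4 h and 9.64 and 9.38 in KO at 2 h, against 9.68 and 9.86 in WT at 4 h and 9.67 and 9.86 in WT at 2 h. It rose by 0.46 in KO (adjusted p = 0.00788), changed by 0.01 in WT (adjusted p = 0.98), and had a difference of 0.45 (0.14 to 0.76, adjusted p = 0.587). Jun, a component of AP-1, rose by 0.49 in KO (adjusted p = 0.00113), changed by 0.16 in WT (adjusted p = 0.275), and had a difference of 0.33 (0.07 to 0.58, adjusted p = 0.62). Of 32 NF-kB subunits and early targets, 5 rose and 13 fell, and the median difference was 0.025. Malt1, a paracaspase that activates NF-kB, rose by 0.44 in KO (adjusted p = 0.00302), changed by 0.07 in WT (adjusted p = 0.71), and had a difference of 0.38 (0.11 to 0.64, adjusted p = 0.587). Further Malt1 probe sets gave 0.096 and -0.19. Nfkbia, the inhibitor IκBα, had -0.09 (-0.31 to 0.13).

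Proteins that bind AU-rich elements or degrade messages had a median difference of -0.059 over 43 genes. Of these, 5 rose and 7 fell averaged over genotypes (11.7% and 10.9% of all genes). Elavl1, encoding HuR, which stabilises such messages, rose by 0.48 in KO (adjusted p = 0.00103), changed by 0.18 in WT (adjusted p = 0.198), and had a difference of 0.30 (0.06 to 0.55, adjusted p = 0.645). With the mean of all its probe sets the value was -0.087. Zfp36l1, which promotes decay, had -0.25 (-0.46 to -0.04, adjusted p = 0.645). Zfp36, encoding tristetraprolin, the decay factor that MK2 inhibits, rose by 0.38 in KO and by 0.51 in WT, with a difference of -0.13 (-0.35 to 0.09).

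Feedback regulators of Toll-like receptor signalling (30 genes, 6 up and 8 down on average, against 11.7% and 10.9% of all genes) had a median difference of -0.011. There Cyld, a deubiquitinase, rose by 0.54 in KO and by 0.32 in WT. Inpp5b was also counted in this list, although its part in such feedback was not tested, and had a difference of 0.16 (-0.02 to 0.34). Toll-like receptors and adaptors (28 genes, 4 up and 4 down) had 0.014. Ikbke, an interferon-activating kinase, rose by 0.81 in KO, changed by 0.34 in WT (adjusted p = 0.3), and had a difference of 0.47 (-0.09 to 1.04), while Tlr12 had -0.81 (-1.52 to -0.11) at levels near the filter. Co-stimulation and maturation genes (29, with 9 up and 6 down) had 0.052, with 21 above 0, and Tnfsf14, the ligand LIGHT, had 0.59 (-0.05 to 1.24) and Cd40 0.06 (-0.16 to 0.28). Antigen presentation (25, with 6 up and 2 down) had 0.006. H2-Oa, a chain of the MHC class II regulator H2-O, fell by 0.66 in WT (adjusted p = 0.00264), changed by -0.10 in KO (adjusted p = 0.658), and had a difference of 0.56 (0.19 to 0.94, adjusted p = 0.587).

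Metabolic and stress lists had small medians of either sign. The heat shock proteins had the lowest, -0.09, with 4 of 18 above 0. Averaged over genotypes 11 of them rose and 3 fell (11.7% and 10.9% of all genes), and the median change was 0.227 in KO and 0.29 in WT. Hspa1b, an inducible HSP70, read 10.29 and 10.12 in KO at 4 h and 10.38 and 10.75 in KO at 2 h, against 10.49 and 10.49 in WT at 4 h and 10.49 and 10.37 in WT at 2 h. It fell by 0.36 in KO (adjusted p = 0.0293), changed by 0.06 in WT (adjusted p = 0.797), and had a difference of -0.42 (-0.72 to -0.11, adjusted p = 0.588). Hsf2, a heat shock transcription factor, had 0.53 (0.11 to 0.95), while its further probe set gave -0.321.

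The unfolded protein and integrated stress response (31 genes, 3 up and 8 down, against 11.7% and 10.9% of all genes) had -0.079, with Xbp1 at -0.24 (-0.45 to -0.03) and the chaperone Calr at -0.28 (-0.54 to -0.02). Further Xbp1 probe sets gave -0.319, 0.102 and -0.027. Lysosome and autophagy genes (35, with 4 up and 14 down) had -0.04. Tfe3, a transcription factor of lysosomal genes, fell by 0.57 in KO (adjusted p = 0.00589), changed by 0.02 in WT (adjusted p = 0.948), and had a difference of -0.59 (-0.96 to -0.22, adjusted p = 0.587). Glycolysis and hypoxia genes (31, with 5 up and 7 down) had -0.038, with 4 lower and 1 higher at an unadjusted p under 0.05. Ddit4, an inhibitor of mTORC1, read 8.94 and 8.86 in KO at 4 h and 9.37 and 9.54 in KO at 2 h, against 9.63 and 9.47 in WT at 4 h and 9.68 and 9.80 in WT at 2 h. It fell by 0.56 in KO (adjusted p = 0.000341), changed by -0.19 in WT (adjusted p = 0.164), and had a difference of -0.36 (-0.61 to -0.11, adjusted p = 0.587). Wipi1, which acts in autophagosome formation, fell by 0.60 in KO (adjusted p = 0.0152), changed by -0.15 in WT (adjusted p = 0.621), and had a difference of -0.45 (adjusted p = 0.699). Pfkl, the liver-type phosphofructokinase, had -0.68 (-1.16 to -0.20).

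Of 41 Myc and ribosome biogenesis genes, 18 rose and 0 fell averaged over genotypes (11.7% and 10.9% of all genes), and 23 were not called. In KO 8 rose and 1 fell, and in WT 4 rose (6.46% and 5.32% of all genes rose). The median difference was 0.033. Nolc1, a nucleolar phosphoprotein, rose by 0.77 in KO (adjusted p = 0.000312), changed by 0.18 in WT (adjusted p = 0.363), and had a difference of 0.58 (0.25 to 0.92, adjusted p = 0.513), opposite in sign to Pes1. S phase and mitosis genes (36, with 1 up and 3 down) had a median of 0.114, with Top2a at 0.46 (-0.02 to 0.93) and Cdc45 at -0.81 (-1.61 to -0.01). Further probe sets above the filter gave the opposite sign, -0.544 for Top2a and 0.363 for Cdc45. The respiratory chain (38, with 5 up and 0 down) had 0.041 and 27 above 0, with Ndufb10 at 0.32 (0.02 to 0.61) and Cox5b at 0.16 (-0.03 to 0.35). Cholesterol and fatty acid synthesis (29, with 2 up and 2 down) had 0.059, apoptosis and survival (30, with 8 up and 5 down) 0.041, and the 6 histones measured 0.027. In the sterol list, Dhcr7 had -0.64 (-1.27 to -0.01) and Pmvk 0.24 (-0.04 to 0.53), and among histones H3f3b had -0.26 (-0.62 to 0.10). Cdkn1a, the cell cycle inhibitor p21, had -0.26 (-0.49 to -0.03). Casp1 of the apoptosis list, the inflammatory caspase, rose by 0.49 in KO (adjusted p = 0.0025), changed by 0.25 in WT (adjusted p = 0.112), and had a difference of 0.24 (-0.04 to 0.52).

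Marker genes checked the label of dendritic cells and the other cells that a lymph node culture may hold. Of 18 migratory dendritic cell markers on the array 17 were above the filter, as were all 19 classical and all 11 plasmacytoid ones, and Fscn1, Ccr7, Cst3 and H2-Aa were among the brightest. Other members lay close to the filter, which is a signal of 10.61. Over the 8 arrays the signals were 2.1 to 17.2 for Xcr1, 2.1 to 20.9 for Cd209a and 5.1 to 21.4 for Cd207. Being above the filter on average therefore does not show that each marker was expressed. The median genotype differences of those lists were 0.018, -0.039 and 0.01. Ccr7, the receptor that guides dendritic cells to lymph nodes, rose by 0.23 in KO (adjusted p = 0.00815), changed by 0.09 in WT (adjusted p = 0.328), and had a difference of 0.14 (-0.02 to 0.30). Dpp4 fell by 0.72 in KO and by 1.17 in WT (difference 0.45, 0.12 to 0.77), and further Dpp4 probe sets gave -0.252, 0.092 and 0.425. Itgax, encoding CD11c, had -0.47 (-0.82 to -0.12, adjusted p = 0.587). Clu, encoding clusterin, had -0.26 (-0.44 to -0.08), and the plasmacytoid markers Spib and Atp1b1 had 0.24 (-0.01 to 0.49) and -0.21 (-0.48 to 0.06).

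Macrophage and monocyte markers, 16 of 18 above the filter, summed to 6896 to 8145 in KO arrays against 4242 to 5144 in WT arrays without overlap, yet their sum changed by -0.171 under both labels and the median difference of the markers was 0.004. Median differences were 0.103 for neutrophil markers (11 of 13 above the filter), 0.157 for T cell markers, 0.063 for B cell and plasma cell markers (15 of 16), -0.008 for stromal and endothelial markers (16 of 17) and 0.033 for erythroid and platelet markers (4 of 9). Mast cell and basophil markers had 3 of 11 above the filter and a median of -0.135. Leaving out 1 array turned the sign of the median for 8 of the 11 marker lists, and for natural killer markers it ran from 0.07 without KO 2 h A to 0.314 without WT 2 h B. Elane, neutrophil elastase, had 1.48 (0.39 to 2.57, adjusted p = 0.587), at levels near the filter, and another neutrophil granule gene, Ltf, had -0.64 (-1.08 to -0.19). The intervals of Vcam1, Cx3cr1, Cd28, Ctla4, Cd79a, Eomes, Col3a1, Pdpn, Cpa3, Tpsab1, Gp9 and Itga2b, with differences from -0.73 for Cpa3 to 0.66 for Cx3cr1, included 0. Gzmb, a cytotoxic granule protease of natural killer and T cells, read 10.49 and 10.48 in KO at 4 h and 9.79 and 9.83 in KO at 2 h, against 10.17 and 10.01 in WT at 4 h and 9.83 and 9.67 in WT at 2 h. It rose by 0.68 in KO and by 0.34 in WT (adjusted p = 0.000341 and 0.0399), and the difference of 0.34 did not pass (0.03 to 0.64, adjusted p = 0.645). Fcer2a, the low-affinity IgE receptor of B cells, fell by 1.10 in WT (adjusted p = 0.00336) and changed by -0.47 in KO (adjusted p = 0.174), with a difference of 0.63 (-0.01 to 1.28). The part of these cell types in the differences above was not tested.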

How the data were processed

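RNA of 12 arrays (2 per genotype label and time; groups by the labels' titles) had been read on an Affymetrix mouse 3′ expression array. The authors deposited linear intensity values per probe set, made with MAS5 per the submitters' processing notes. The sources used here give no scaling target, version or detection calls. The intensities shared no scale (trimmed means differed 1.53-fold over the 8 arrays at 2 and 4 h), so they were quantile-normalized and tested as log2(value + 16). The platform annotation paired 34945 of 45101 probe sets with 1 gene symbol, 932 with several and 9211 with none, and 64 control probe sets were left out. The brightest probe set stood for a gene, and 12791 of 18193 genes at or above the 40th percentile of all probe sets were tested. Two-sided tests came from limma 3.58.1 under R 4.3.3 (6 group means, trended eBayes, 6 residual and 9.131 prior degrees of freedom), and the code was tested on simulated data. The contrast, the gene lists and the naming rule were chosen with earlier results of these data known. Genes named are Mapk14, the 12 genes of smallest p in each direction, 2 per list and up to 5 per time class (3 by size of change, 2 by p), passing over clone-like names, plus genes chosen for their role as said. Alternatives were scaling, pseudocount, filter, probe set rule, variance model, arrays fitted, threshold, replicate block and each array left out.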

Additional observations from a re-analysis of the deposited data

How the results depend on the processing

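The genotype difference was called for 0 genes in all settings but 2 of those that left out 1 array. The genes were Clcn5, lower at -2.00 without KO 2 h B, and Dnah2, higher at 0.995 without WT 2 h B. Clcn5 was read by a probe set with the suffix _x_at, and its brightest probe set without that suffix gave -0.206 with all arrays. Leaving out single arrays therefore gave 0 to 1 higher and 0 to 1 lower genes, and the group with 1 array left was assumed to vary like the others. Elsewhere the smallest adjusted p ran from 0.0997 (pseudocount of 64) to 0.571 (without WT 4 h B). Genes at an unadjusted p under 0.05 numbered 290 on the deposited scale and 702 to 1264 otherwise. With the replicate block the count was 0 in both directions (998 at an unadjusted p under 0.05, smallest adjusted p = 0.212). Deviations of the A arrays from their group means shared no strong pattern between groups (correlations from -0.042 to 0.105 over 15 pairs of groups). The block changed no call of the difference. Whether the letters A and B pair the arrays by animal or culture cannot be told from such correlations.

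Counts of rising and falling genes moved more. On the deposited scale 1379 rose and 176 fell on average, 260 and 43 in KO, and 173 and 57 in WT. With a log2 change of at least 1 they were 31 and 46 on average, 43 and 62 in KO, and 26 and 59 in WT, since the threshold is stricter. In WT, 427 rose with the mean of all probe sets and 378 with eBayes without trend. With single arrays left out, 1107 to 1259 rose and 1125 to 1208 fell on average, 366 to 797 and 539 to 888 in KO (lowest without KO 4 h B), and 291 to 667 and 411 to 725 in WT (lowest without WT 4 h A and WT 2 h A).

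Of 134 named genes, those chosen for their role included, the sign of the difference turned for 30, none with a called difference, and the cause was not tested. On the deposited scale Ndrg4 was 0.045, Ccl17 0.089, Csf3 0.071, Cxcl2 0.024, Cxcl9 0.07, Dusp1 0.038 and Il1b 0.008, and with trimmed-mean scaling Ccl17 was 0.016. With only 8 arrays normalized Fndc4 was 0.385. With a pseudocount of 1 Etfbkmt was 0.063 and Fndc4 0.82, and with 64 Fndc4 was 0.009. With the mean of all probe sets Elavl1 was -0.087, Top2a -0.025, Eomes 0.134, Slc6a14 -0.088, Nfkbia 0.013 and Fndc4 0.15. Without the suffixes _x_at and _s_at Abhd14a was -0.219, Cxcl1 0.028, Cox5b -0.092 and Ndrg4 0.072. With single arrays left out the differences ran from -0.526 to 0.205 for Zeb2, -0.22 to 0.276 for Slc6a14, -0.562 to 0.115 for Mxd4, -0.077 to 0.249 for Nfil3, -0.382 to 0.112 for Tpsab1, -0.216 to 0.043 for Ndrg4, -0.474 to 0.312 for Etfbkmt, -0.371 to 0.154 for Fndc4, -0.382 to 0.074 for Cxcl3, -0.29 to 0.028 for Mapk14, -0.015 to 0.277 for Gpr33, -0.125 to 0.054 for Ccl17, -0.047 to 0.207 for Csf2, -0.224 to 0.159 for Csf3, -0.016 to 0.219 for Cxcl10, -0.091 to 0.08 for Cxcl2, -0.215 to 0.125 for Cxcl9, -0.019 to 0.026 for Ebi3, -0.077 to 0.358 for Il12b, -0.072 to 0.363 for Il1a, -0.195 to 0.012 for Il1b and -0.029 to 0.245 for Osm.

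Precision is limited by 2 arrays per group and, for weakly expressed genes such as Emx1, Lgr6 and Tlr12, by signals close to background.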
